A study of Drosophila melanogaster with 32 samples.

Results

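Loading of the 2 arms of miRNA hairpins into Ago2 and Ago1 was compared in female Drosophila melanogaster. The comparison used reads of up to 25 nt in the female libraries and kept every miRNA row (names starting with miR-, let- or bantam) that averaged 5 or more reads over them, which left 167 of 209 miRNA rows. For 45 of 65 hairpins both arms, called 5p and 3p after the end of the hairpin they come from, passed that minimum, so that the ratio of the arms could be followed within each precipitate. The female libraries made up 16 of 32, with 8 Ago2 and 8 Ago1 precipitates matched on genotype, age and experiment.

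The study immunoprecipitated endogenous argonautes from lysates of 40 whole flies with guinea pig antisera and sequenced the small RNAs bound to them, to ask whether age and dFOXO alter small RNA loading. The mutant flies were wDah;dfoxo{delta}94, called dFOXO-null here, which carry a deletion in foxo made by imprecise excision of a P-element. The comparison strain was wDah, an outbred-derived stock into which the white mutation was backcrossed, and it is the background of both genotypes. Each genotype was sampled at 35 d and at 5 d as labelled, each with an Ago2 and an Ago1 precipitate and 2 experiments, which gave 2 libraries in each of 8 groups. Females were kept with males, and young and old flies of 1 genotype and experiment were siblings. Whole bodies were used, so a change in the make-up of tissues and a change in loading within a tissue cannot be told apart.

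A miRNA hairpin is cut into a duplex whose strands are the 5p and the 3p arm, and usually only one strand is kept by an argonaute. In flies Ago1 is the main miRNA carrier and takes strands that begin with U from duplexes with central mismatches. Ago2 is best known for siRNAs, and is also known to take miRNA strands that Ago1 discards, often ones that begin with C.

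The mature sequences of 11 of the 14 hairpins named for their arm shifts are shown first, as arm pairs, because the results turn on which strand of each was bound. They were read from the dm6 genome at RefSeq annotation coordinates, run 5′ to 3′, and the capitals mark the seed, bases 2 to 8, with which a miRNA pairs to its targets. The arm in relative excess in Ago2 stands first in each set.
let-7-3p: cUAUACAAugugcuagcuuucu
let-7-5p: uGAGGUAGuagguuguauagu
miR-100-3p: cAAGACCGgcauuaugggaguc
miR-100-5p: aACCCGUAaauccgaacuugug
miR-998-5p: aCUGAAUUcucgugggucugca
miR-998-3p: uAGCACCAugagauucagcuc
miR-92a-5p: aGGACGGGaaggugucaacguu
miR-92a-3p: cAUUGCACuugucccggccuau
bantam-5p: cCGGUUUUcgauuugguuugacu
bantam-3p: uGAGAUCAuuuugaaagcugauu
miR-276a-5p: cAGCGAGGuauagaguuccuacg
miR-276a-3p: uAGGAACUucauaccgugcucu
miR-276b-3p: uAGGAACUuaauaccgugcucu
miR-275-5p: cGCGCUAAucagugaccggggcu
miR-275-3p: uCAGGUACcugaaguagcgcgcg
miR-33-3p: cAAUACAAcuucagugcaagcu
miR-33-5p: gUGCAUUGuagucgcauuguc
miR-9a-3p: uAAAGCUAgcuuaccgaaguua
miR-9a-5p: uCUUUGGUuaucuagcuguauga
miR-284-5p: cCUGGAAUuaaguugacuguguagcc
miR-284-3p: gUCAGCAAcuugauuccagca

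The let-7 and miR-100 hairpins lie in 1 long noncoding exon, lncRNA:let7C, with let-7-3p at chr2L:18472082-18472103 and miR-100-3p at chr2L:18471484-18471505, both on the plus strand. miR-998 lies on the minus strand in an intron of E2f1, a cell-cycle transcription factor gene (miR-998-5p at chr3R:21621977-21621998). miR-33 lies in an intron of SREBP, a regulator of lipid synthesis (miR-33-3p at chr3L:19798025-19798046), and miR-92a in an intron of jigr1 (miR-92a-5p at chr3R:25646522-25646543). The bantam hairpin lies in an exon of lncRNA:CR43334 (bantam-5p at chr3L:642222-642244). miR-276a-5p and miR-276b-5p have the same sequence and held identical counts in every library, so the reads of one cannot be assigned to either hairpin. Their 3p arms share a seed and differ at 1 base within the body of the RNA. With alignment at 1 mismatch, reads may be shared between these 3p arms too.

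Depth differed strongly between the precipitates. The 8 Ago2 libraries held between 17060 and 195983 miRNA reads with a median of 41716, against 833104 to 3482969 with a median of 1978603 in the 8 Ago1 libraries. miRNAs made up 55.5% to 69.5% of mapped reads in Ago2 and 98.6% to 99.5% in Ago1, the rest being transposon reads, and all 117 other rows tested were higher in Ago2, so that 65.1% of all rows were called, 60.9% higher and 4.23% lower. Every share below is a percent of the miRNA reads of its own library, and the precipitates' depth and miRNA percentage move with each such share, and their part in the results was not tested. Of the 167 miRNAs, 136 held 20 or more reads summed over the libraries of each precipitate, 52 had 0 reads in at least 1 Ago2 library and 5 in at least 1 Ago1 library. miR-998-5p and miR-100-3p averaged under 5 reads in the Ago1 libraries and so entered only through Ago2, where they are high. Another 47 averaged under 5 reads in the Ago2 libraries and entered only through Ago1, of which 10 were called higher and 0 lower. For 22 miRNAs both libraries of at least 1 group had 0 reads, and none of these 22 was called. At the edge of the rule miR-314-5p, miR-1004-5p and miR-375-5p averaged 5.19, 5.25 and 5.44 reads just inside, and miR-7-3p, miR-932-3p and miR-954-5p averaged 4.81, 4.88 and 4.88 just outside. Of 8 miRNAs taken as ovary markers, 7 were in the table and summed to 1.16% to 7.39% of miRNA reads in female Ago2 and 1.33% to 5.31% in female Ago1, while 14 of 20 testis markers summed to at most 0.0618% and 0.0295%.

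Ago2 held more of the strand that Ago1 holds least. Among the 45 hairpins the arm ratio, log2 of 5p over 3p reads within a library, differed between Ago2 and Ago1 for 30 (66.7% called, edgeR's quasi-likelihood test with Benjamini-Hochberg adjustment). The ratio moved toward 5p in 24 (53.3%) and toward 3p in 6 (13.3%). The minor arm of each hairpin was taken as the one with fewer reads in the 8 male Ago1 libraries, which do not enter this comparison. For 2 hairpins, miR-305 and miR-285, neither of them called, the other arm had fewer reads in the female Ago1 libraries. In 27 of the 30 the ratio moved toward the minor arm and in 3, miR-284, miR-958 and miR-929, toward the major arm. A ratio of arms within a library does not depend on how libraries are scaled. The minor-arm percentages of the precipitates did not overlap for 19 of the 45 hairpins (42.2%). For 35 of the 45 each arm held 20 or more reads in each precipitate, and the plot of arm shifts is limited to these.

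**Figure D1:**
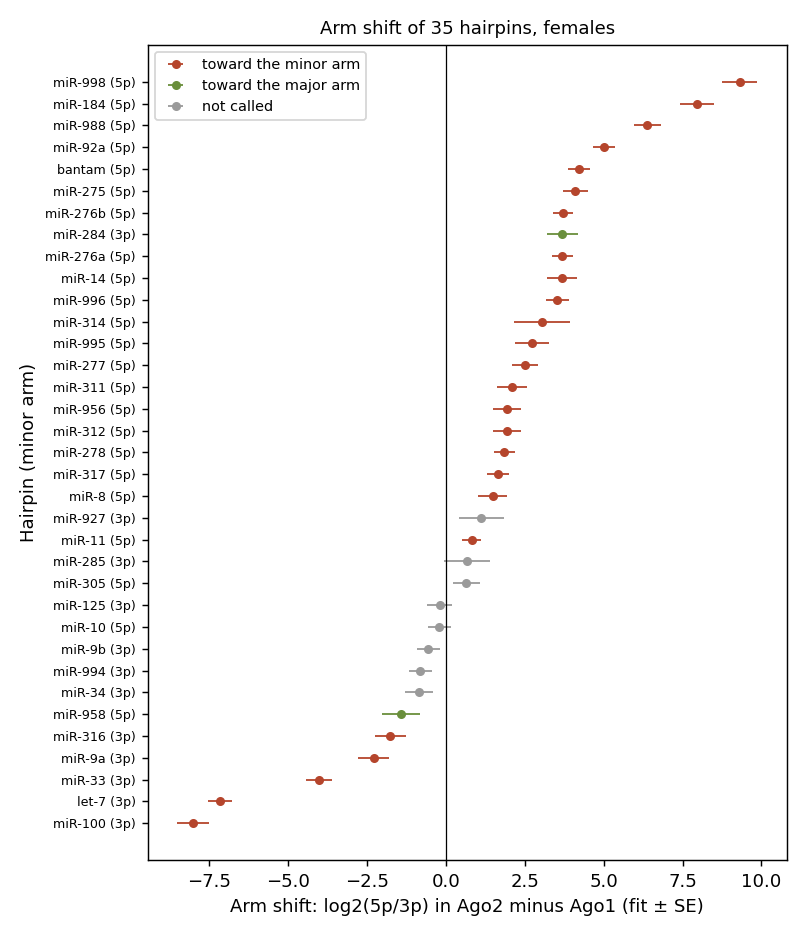
Arm shift of the 35 hairpins with 20 or more reads of each arm in each precipitate. The x axis gives log2(5p/3p) in Ago2 minus that in Ago1 as fitted, the bars are standard errors, the hairpins run down the page with their minor arm in brackets, and colour marks a called shift toward the minor arm, toward the major arm or no call. Shifts ran between -8.02 for miR-100, whose minor arm is 3p, and 9.31 for miR-998, whose minor arm is 5p. The minor arms of both passed the read minimum only through Ago2.

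The let-7 hairpin, whose 5p arm is the conserved timer of late development, was the clearest case on the 3p side. let-7-3p made up 29.3%, 45.4% and 68.0% of the hairpin's reads in Ago2 (lowest, median and highest of 8 libraries), against 0.284%, 0.627% and 1.70% in Ago1. The ranges lay far apart, and the shift was -7.16 ± 0.38 on the log2 scale (SE, adjusted p = 1.13e-12 by edgeR's quasi-likelihood test), toward 3p in 8 of 8 matched pairs. Of its arms, the 3p passed the test on shares and the 5p did not. let-7-3p took 0.0667%, 0.153% and 0.355% of miRNA reads in Ago2, against 0.000502%, 0.000836% and 0.00156% in Ago1, a 161-fold difference (log2 7.33 ± 0.41). let-7-5p took 0.102%, 0.152% and 0.202% in Ago2, against 0.0481%, 0.152% and 0.210% in Ago1, with a log2 difference of 0.05 ± 0.28 (adjusted p = 0.906). The median shares of the let-7 arms in Ago2 were thus nearly equal.

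miR-100, cut from the same transcript as let-7, had the largest shift toward 3p. miR-100-3p made up 22.6%, 27.4% and 38.5% of the hairpin's reads in Ago2, against 0%, 0.132% and 0.673% in Ago1, and the ranges did not overlap. The shift was -8.02 ± 0.50 (adjusted p = 1.11e-11), and it rests on 176 reads of miR-100-3p in all Ago2 libraries and 23 in all Ago1 libraries, an arm that passed the read minimum only through Ago2. miR-125, the last hairpin of that transcript, did not pass the arm test. Its 3p arm made up 0%, 2.03% and 4.03% of the hairpin's reads in Ago2, against 1.03%, 2.10% and 3.18% in Ago1 (shift -0.20 ± 0.41, adjusted p = 0.666), whereas its 5p arm was 2.06-fold higher in Ago2 (adjusted p = 0.00981). Of the 6 arms of the let-7 complex, 3 were higher in Ago2, 0 were lower, and the median log2 difference was 0.99, beside 33.5% higher, 7.19% lower and a median of 0.26 over the 167 miRNAs.

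miR-33 and miR-9a also moved toward their 3p arms. miR-33-3p made up 3.17%, 4.66% and 9.12% of the hairpin's reads in Ago2, against 0.108%, 0.324% and 0.576% in Ago1 (shift -4.04 ± 0.41, adjusted p = 1.59e-08). Both arms of miR-33 had a larger share in Ago2, the 5p arm 5.17-fold and the 3p arm 81.9-fold. miR-9a-3p, partner of the arm that restrains the formation of sensory organs, made up 1.65%, 3.62% and 8.33% in Ago2, against 0.308%, 0.623% and 1.44% in Ago1 (shift -2.30 ± 0.48, adjusted p = 0.000293). Neither hairpin's ranges overlapped. miR-9b, of the same family, had a shift of -0.57 ± 0.37 (adjusted p = 0.179), and of 8 arms of the miR-9 family 2 were higher, 1 was lower and the median log2 difference was 0.03, beside 33.5% higher, 7.19% lower and 0.26 over all 167.

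On the 5p side, miR-998 and miR-988 changed their leading arm. miR-998-5p made up 78.5%, 86.2% and 93.8% of the hairpin's reads in Ago2, against 0%, 0.767% and 2.82% in Ago1, a shift of 9.31 ± 0.57 (adjusted p = 8.34e-12). miR-988-5p made up 87.9%, 92.3% and 95.8% in Ago2, against 4.44%, 13.4% and 21.5% in Ago1, a shift of 6.38 ± 0.42 (adjusted p = 1.86e-11). Each was the majority arm in every Ago2 library and the minority arm in every Ago1 library. For miR-998 the share of miRNA reads differed 553-fold in the 5p arm, which passed the read minimum only through Ago2, while the 3p arm had a log2 difference of -0.31 ± 0.32 (adjusted p = 0.42). The leading arm by the median percent over libraries also differed for miR-996, miR-305, miR-285 and miR-1004, which makes 6 hairpins. By summed reads, however, miR-305-5p led in both precipitates, with 1314 against 757 reads in Ago2 and 27860 against 23192 in Ago1. Of these miR-996 was called, its 5p arm making up 38.9%, 51.1% and 73.5% in Ago2, against 7.32%, 9.90% and 13.6% in Ago1 (shift 3.53 ± 0.37), and miR-305, miR-285 and miR-1004 did not pass the test.

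In 7 further named hairpins the minor arm made up a larger percent in every Ago2 library than in any Ago1 library. The same held for some hairpins outside the naming rule's limit, such as miR-277, miR-317 and miR-956. bantam-5p, partner of the growth-promoting bantam-3p, made up 2.08%, 5.03% and 12.4% of the hairpin's reads in Ago2, against 0.178%, 0.261% and 0.588% in Ago1 (shift 4.22 ± 0.35, adjusted p = 7.96e-10). miR-184-5p made up 0.383%, 1.46% and 4.84% in Ago2, against 0.00205%, 0.00747% and 0.0108% in Ago1 (shift 7.96 ± 0.53). miR-92a-5p made up 33.8%, 45.3% and 54.4% in Ago2, against 1.38%, 2.64% and 3.55% in Ago1 (shift 5.00 ± 0.35). The miR-92a arms were thus close to parity in Ago2, with 5p ahead in some of its libraries and 3p in others. miR-276a-5p made up 0.294%, 0.862% and 2.45% in Ago2, against 0.0498%, 0.0647% and 0.0983% in Ago1 (shift 3.68 ± 0.33). For miR-276b the shift was 3.70 ± 0.33, though it shares its 5p reads with miR-276a and may share 3p reads. The 5p arm of miR-275 made up 1.34%, 3.88% and 6.21% in Ago2, against 0.0901%, 0.189% and 0.306% in Ago1, and that of miR-14 made up 1.13%, 3.52% and 7.40% in Ago2, against 0.0757%, 0.288% and 0.793% in Ago1 (shifts 4.10 ± 0.40 and 3.67 ± 0.47).

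**Figure D2:**
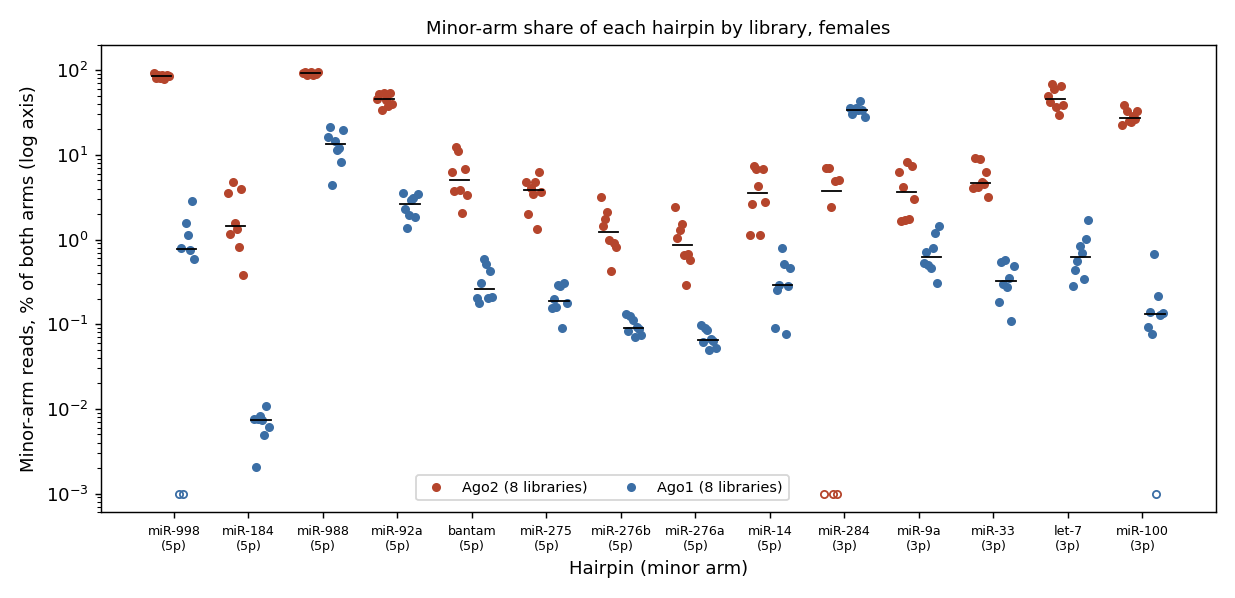
Minor-arm reads as a percent of both arms' reads for the 14 named hairpins, 8 Ago2 and 8 Ago1 libraries each. The y axis is logarithmic, points are libraries, black lines are medians, and open circles drawn at 0.001% are libraries without a minor-arm read. In every hairpin but miR-284 all Ago2 libraries lie above all Ago1 libraries.

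miR-284 was the large shift in the other direction. Its minor arm, 3p, made up 0%, 3.69% and 7.06% of the hairpin's reads in Ago2, against 27.7%, 34.1% and 43.4% in Ago1, so Ago2 held nearly pure 5p arm. The shift toward 5p was 3.69 ± 0.51 (adjusted p = 1.39e-06), with 35 reads of the 3p arm in all Ago2 libraries. Its size varied with 3 single libraries, being 6.14, 6.0 and 6.17 without the experiment 2 Ago2 library of 5 d wDah, 5 d dFOXO-null and 35 d dFOXO-null females. Each of these omissions left a group at 0 reads of the 3p arm, so that these sizes are no bound. miR-958 had a shift of -1.43 ± 0.60 (adjusted p = 0.039) and miR-929 a fitted shift of 4.95 ± 1.70 with 2 reads of its 3p arm in Ago2 and 0 in both 5 d groups, so that its size is no bound.

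Summed over the 45 hairpins, minor arms made up 3.70 ± 1.51% of miRNA reads in Ago2 and 0.939 ± 0.309% in Ago1 (SD, n = 8 each). The Ago2 libraries ran between 1.69% and 5.84% with a median of 3.66%, and the Ago1 libraries between 0.550% and 1.37% with a median of 0.872%, without overlap. The difference of 2.76 percentage points, or 3.94-fold, had p = 0.00154 in a two-sided exact permutation test within genotype and age, the smallest p these 1296 arrangements can give. Libraries of experiment 1 were above those of experiment 2 within each genotype and age in both precipitates. Taken separately, experiment 1 gave a difference of 3.49 points and experiment 2 one of 2.04, and the exact p of 0.125 for either is the smallest possible with 4 pairs. miR-8-5p, miR-10-5p, miR-988-5p and bantam-5p contributed most to the Ago2 sum, with means of 0.657%, 0.471%, 0.394% and 0.355% in Ago2, against 0.126%, 0.392%, 0.00224% and 0.0195% in Ago1. The 5p reads of miR-276a and miR-276b, being identical, count for each hairpin in these sums. miR-10-5p is thus a large minor arm without a shift (-0.22 ± 0.37, adjusted p = 0.632).

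**Figure D3:**
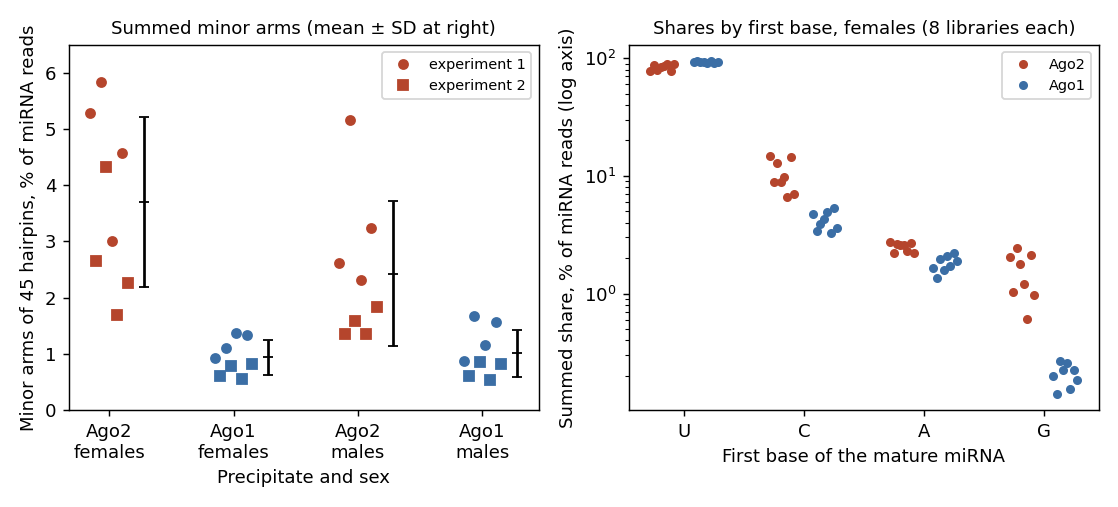
Left, summed minor arms of the 45 hairpins as a percent of miRNA reads in each library, with experiment 1 as circles, experiment 2 as squares and the mean ± SD of 8 libraries beside them; right, summed shares of miRNAs by first base on a logarithmic axis, 8 female libraries per precipitate. Female Ago2 libraries lie between 1.69% and 5.84%, above all female Ago1 libraries, and miRNAs starting with U have a smaller summed share in every Ago2 library than in any Ago1 library. miR-263a-5p, without an annotated sequence, is in no class.

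Counted as single miRNAs, 56 were higher in Ago2 (33.5% of the 167), 12 were lower (7.19%) and 99 did not pass the test (edgeR's quasi-likelihood test with Benjamini-Hochberg adjustment over 284 rows, 40.7% of miRNAs called). Of the 56, 53 were higher in 8 of 8 pairs, and for 26 no Ago2 library overlapped the Ago1 range (16.2% of all 167 had ranges apart). Minor arms accounted for 29 of the 56, with 0 of 45 minor arms lower. Of the 47 miRNAs that averaged under 5 reads in Ago2, 0 were called lower, and the part of depth in these counts was not tested. Of 45 major arms 13 were higher and 7 lower, and of 77 miRNAs without a partner among the members 14 were higher and 5 lower. With experiment as a block within genotype, which pairs siblings, 63 were higher and 19 lower, and with the 8 matched sets as blocks 67 and 21.

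The balance between higher and lower calls depended on the scale. With all mapped reads as the library size 42 miRNAs were higher and 47 lower, with TMM factors over all rows 17 and 129, with TMM factors over miRNAs 42 and 46, with median-of-ratios factors 45 and 36, and with DESeq2 47 and 35. These scales moved the median log2 difference by -0.65, -2.92, -0.71, -0.49 and -0.48. The directions below are therefore relative to total miRNA reads.

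miR-2a-2-5p, the passenger strand of a K-box miRNA encoded in an intron of spi, an EGF receptor ligand gene, had the highest ratio. It took 0.153%, 0.331% and 0.393% of miRNA reads in Ago2, against 6.51e-05%, 0.00026% and 0.000517% in Ago1, and the ranges lay far apart. The difference was 1190.2-fold (log2 10.22 ± 0.41, adjusted p = 5.63e-12), from 1469 reads in Ago2 and 42 in Ago1. The 5p arm of its neighbour miR-2a-1 was 38.0-fold higher, with 162 reads in each precipitate. Their sequences share the stretch after the seed but not the seed.
miR-2a-2-5p: cCUCAUCAagugguugugaua
miR-2a-1-5p: cUCUCAAAgugguugugaaaug

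Both are on the minus strand, at chr2L:19569534-19569554 and chr2L:19569945-19569966. Of 13 arms of the K-box family, 6 were higher, 0 were lower and the median log2 difference was 0.32, beside 33.5% higher, 7.19% lower and 0.26 over all 167. The 6 higher ones were all 5p arms, among them miR-2b-2-5p (8.78-fold) and miR-13b-2-5p (7.34-fold). None of the family's 3p arms, which pair with the K-box motif of Notch target genes, was called.

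The other leading miRNAs were mostly arms described above. miR-998-5p took 0.0524%, 0.0706% and 0.176% of miRNA reads in Ago2, against 0%, 0.000151% and 0.000521% in Ago1, where it held 28 reads in all. miR-988-5p took 0.145%, 0.385% and 0.611% in Ago2, against 0.0012%, 0.00235% and 0.00305% in Ago1, a 167-fold difference. Neither pair of ranges overlapped. miR-100-3p was 283-fold, miR-184-5p 206-fold, miR-33-3p 81.9-fold, miR-991-3p 23.2-fold and miR-996-5p 23.1-fold higher, all with adjusted p of 1.3e-07 or less. The lowest of the counts behind these ratios was 23 reads in Ago1, for miR-100-3p, which like miR-998-5p entered only through Ago2. All 10 of the highest remained higher under each scaling named above.

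Higher miRNAs were not only minor arms. miR-252-5p, which has no partner row among the members, took 0.768%, 1.19% and 3.72% in Ago2, against 0.111%, 0.197% and 0.343% in Ago1 (7.69-fold, adjusted p = 1.26e-08), without overlap. miR-8-3p, a regulator of growth in the fat body, took 4.61%, 5.72% and 7.49% in Ago2, against 2.62%, 3.85% and 4.91% in Ago1. This 1.52-fold difference (adjusted p = 0.00236) was seen in 8 of 8 pairs with overlapping ranges, but it turned to -0.07, -2.36 and -0.13 on the log2 scale with all mapped reads, TMM over all rows and TMM over miRNAs.

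**Figure D4:**
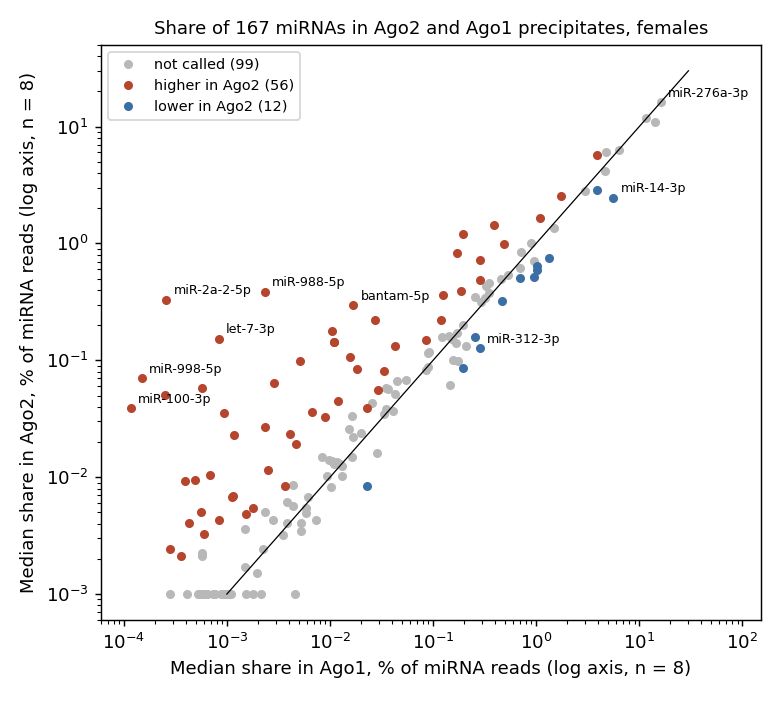
Median share of each of the 167 miRNAs in 8 Ago2 libraries (y) and 8 Ago1 libraries (x), in percent of miRNA reads on logarithmic axes. The line marks equal shares, colour marks the test's call, and Ago2 medians under 0.001% are drawn at 0.001%. The 56 higher miRNAs lie mostly among those rare in Ago1, and the 12 lower ones close below the line.

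The lower miRNAs moved less, and for none of the 12 were the ranges apart. The largest among those lower in every pair were miR-312-3p and miR-311-3p, of a cluster expressed in the ovary. miR-312-3p took 0.0596%, 0.127% and 0.205% in Ago2, against 0.189%, 0.286% and 0.585% in Ago1 (log2 -1.36 ± 0.27, adjusted p = 0.000187). miR-311-3p took 0.0596%, 0.0860% and 0.214% in Ago2, against 0.0789%, 0.195% and 0.393% in Ago1 (log2 -1.22 ± 0.39, adjusted p = 0.01). miR-14-3p, known for roles in fat metabolism and cell survival, was the most abundant of the lower ones. It took 1.96%, 2.46% and 3.69% in Ago2, against 2.61%, 5.61% and 10.4% in Ago1 (log2 -1.16 ± 0.27, adjusted p = 0.00084). miR-318-3p, miR-281-3p, miR-31b-5p, miR-31a-5p, miR-989-3p and miR-184-3p had log2 differences of -0.86, -0.82, -0.66, -0.55, -0.48 and -0.45. miR-31a-5p and miR-31b-5p are nearly the same sequence, so reads may be shared between them. Leaving out 1 library removed the call for miR-989-3p in 12 of 16 cases and for miR-31a-5p and miR-184-3p in 2 each, with log2 differences between -0.55 and -0.40 for miR-989-3p, between -0.60 and -0.51 for miR-31a-5p, and between -0.51 and -0.38 for miR-184-3p.

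Of the 10 most abundant miRNAs, 7 did not pass the test, beside 99 of all 167. miR-276a-3p took 13.6%, 16.2% and 18% in Ago2, against 13.7%, 16.3% and 19.8% in Ago1 (log2 -0.04 ± 0.12, adjusted p = 0.809). miR-276b-3p, bantam-3p, miR-956-3p, miR-34-5p and miR-277-3p had log2 differences of -0.06, -0.10, 0.30, -0.13 and -0.16 and did not pass the test either. Reads may be shared between miR-276a-3p and miR-276b-3p. miR-1-3p, the muscle miRNA, took 5.29%, 10.9% and 13.8% in Ago2, against 7.55%, 14.2% and 22.0% in Ago1 (log2 -0.43 ± 0.20, adjusted p = 0.0694). With siblings or matched sets as blocks it was lower (adjusted p = 0.000807 and 0.00139) and miR-956-3p was higher (adjusted p = 0.0208 and 0.036). Of the 10, miR-8-3p was higher and miR-14-3p and miR-184-3p were lower. On each of the 5 other scales named above, miR-276a-3p, miR-276b-3p, miR-1-3p, bantam-3p, miR-34-5p and miR-277-3p were called lower as well.

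Groups of miRNAs with known roles were counted in the same way, beside 33.5% higher, 7.19% lower and a median log2 difference of 0.26 over all 167. Of 4 arms of the miR-276 pair, 2 were higher and the median was 1.81, the 5p arms being 12.7-fold higher and the 3p arms not called. Of 4 ovary-expressed arms 2 were higher, miR-994-3p and miR-994-5p (6.12-fold and 3.25-fold), and 2 were lower, miR-318-3p and miR-989-3p. Of 10 arms with the miR-92 seed or its cluster 1 was higher and 2 were lower, with a median of -0.62, or -0.56 without 1 arm that had 0 reads in a whole group. Of 6 arms of the miR-34 cluster, a set linked with ageing and metabolism, 2 were higher, miR-277-5p (4.95-fold) and miR-317-5p (2.51-fold). Of 10 mirtron arms, cut from spliced introns without Drosha, 1 was higher and 1 lower. Each mirtron arm held 3 to 60 reads in all Ago2 libraries together, and 5 of the 10 had a group at 0. The fitted median was -1.38 over the 10 and 0.05 over the other 5, beside 0.26 over all 167 and 0.42 over those without a group at 0, so its sign rests on arms whose fitted size is no bound. Of 3 neural arms miR-1000-5p was higher (6.01-fold), and of 2 muscle arms miR-133-3p was higher (1.75-fold).

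The first base of the miRNA, which the choice of members did not use, differed between the calls. miR-263a-5p, called higher, had no annotated sequence and enters no class here. Of 166 miRNAs with an annotated sequence, 31 began with C, of which 20 were higher (64.5%) and 0 lower, and 11 began with G, of which 8 were higher (72.7%) and 0 lower. Of 95 that began with U, 18 were higher (18.9%) and 12 lower (12.6%), and of 29 that began with A, 9 were higher (31.0%) and 0 lower. All 12 lower miRNAs thus began with U. Among the 29 higher minor arms 14 began with C (48.3%), 6 with G, 5 with A and 4 with U, beside 19 with C (42.2%), 8 with G, 10 with A and 8 with U among all 45 minor arms. Of the 45 major arms 33 began with U (73.3%). First base and arm role thus move together, and their parts in the calls were not tested. In the 11 hairpins printed above the arm in relative excess in Ago2 begins with c in 8, with a in 2, miR-998 and miR-92a, and with u in 1, miR-9a. The identical 5p arm of miR-276a and miR-276b counts for each. The printed set, with 0 beginning with g, does not stand for all shifted hairpins. Over the 27 that moved toward the minor arm, that arm began with C in 14, with G in 5, with A in 4 and with U in 4.

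By summed share, miRNAs beginning with U made up 77.8%, 84.9% and 89.4% of miRNA reads in Ago2, against 91.0%, 92.6% and 94.1% in Ago1. Those beginning with C made up 6.56%, 9.36% and 14.7% in Ago2, against 3.28%, 4.08% and 5.37% in Ago1. Those beginning with G made up 0.607%, 1.49% and 2.45% in Ago2, against 0.141%, 0.213% and 0.268% in Ago1. These 3 classes did not overlap between the precipitates. For A the values were 2.22%, 2.60% and 2.75% in Ago2, against 1.36%, 1.80% and 2.22% in Ago1, with ranges that met. miR-263a-5p is in none of these sums, though it held 7420 reads in all Ago2 libraries and 182002 in all Ago1 libraries. Length did not separate the calls, with a median of 22 nt for higher, lower and uncalled miRNAs alike. In duplexes predicted by RNAcofold, base 9 was paired in 50 of 55 higher, 12 of 12 lower and 68 of 94 uncalled miRNAs. Base 10 was paired in 40 of 55 higher, 10 of 12 lower and 62 of 94 uncalled miRNAs, which differ less.

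The shifts showed no difference between ages or genotypes that passed the test. For 35 d against 5 d, 0 of 167 miRNAs (0% called) and 0 of 45 hairpins passed edgeR's quasi-likelihood test, while 1 miRNA and 0 hairpins had p below 0.05 before adjustment. For dFOXO-null against wDah, 0 of 167 and 0 of 45 passed (0% called in each), while 3 miRNAs and 1 hairpin had p below 0.05 before adjustment. With 2 libraries per group, this does not show that the ratios were alike. The lowest p for genotype was that of miR-986-5p, whose log2 Ago2 over Ago1 ratio in matched pairs was 1.55 and 2.60 at 35 d and 1.99 and 2.66 at 5 d in dFOXO-null females, against 0.26 and 0.49 at 35 d and 0.78 and 1.29 at 5 d in wDah females. The pairs of the genotypes did not overlap, and the fitted difference was 1.51 ± 0.41 (adjusted p = 0.539 by edgeR's quasi-likelihood test). Such a gap was not particular to miR-986-5p, since bantam-5p, let-7-3p, miR-276a-5p and miR-989-3p, among others, had one too. For age it was that of miR-9378-5p (adjusted p = 0.9997 by edgeR's quasi-likelihood test), which had 0 reads in both Ago2 libraries of 5 d wDah females, so that its fitted difference of 5.46 ± 1.80 is no bound. The let-7-3p percentage of let-7 reads in Ago2 was 38.5% and 65.5% at 35 d and 29.3% and 36.8% at 5 d in dFOXO-null females, and 59.5% and 68.0% at 35 d and 41.7% and 49.2% at 5 d in wDah females.

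The same contrast in males served to show where females differ. Summed minor arms made up 2.43 ± 1.28% in male Ago2 and 1.01 ± 0.422% in male Ago1 libraries (SD, n = 8 each). The minor arms were set by these same male Ago1 libraries, so this male contrast is not independent of that choice. Of 194 miRNAs tested over all 32 libraries, the Ago2 over Ago1 ratio was higher in females for 15 and lower for 4 (9.79% called, beside 7.59% over all rows). Of 55 hairpins, the arm shift was further toward 5p in females for 8 and further toward 3p for 2 (18.2% called), and with siblings as blocks 17 hairpins passed. Male libraries differed in make-up, with miRNAs at 74.8% to 96.0% of mapped reads in Ago2 and 99.4% to 99.8% in Ago1, and ovary markers at 0.00358% to 0.121% of miRNA reads in Ago2 and 0.00348% to 0.0117% in Ago1. The part of these values in the sex differences was not tested. With all mapped reads as the library size 6 ratios were higher in females and 14 lower.

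Of the 15, 7 were minor arms, beside 45 minor arms among the 167 members of the female comparison. The 7 were those of miR-988, miR-276a, miR-276b, miR-33, miR-100, bantam and let-7, with miR-276a-5p and miR-276b-5p holding identical counts. Each had a median pair ratio above 0 in both sexes. miR-276a-5p took 0.0531%, 0.144% and 0.340% in female Ago2 and 0.00782%, 0.0109% and 0.0147% in female Ago1, against 0.0130%, 0.0251% and 0.0436% in male Ago2 and 0.0071%, 0.00985% and 0.0172% in male Ago1. Female and male Ago2 libraries did not overlap while the Ago1 libraries did, and the log2 ratio was 2.50 ± 0.41 higher in females (adjusted p = 0.000402). The difference for miR-33-3p was 2.80 ± 0.60, for miR-2a-2-5p 2.55 ± 0.52 and for miR-284-5p 2.50 ± 0.38. Among arm shifts, miR-311 had 20 reads of its 5p arm in female Ago2, and 16 in male Ago2 with 0 in all 4 of the 35 d libraries. Its median shift over matched pairs, with 0.5 reads added, was 2.84 in females against 0.19 in males, and its fitted sex difference of 4.92 ± 1.11 rests on groups at 0 and is no bound. The difference was 2.71 ± 0.42 for miR-276b, 2.69 ± 0.83 for miR-998, 2.68 ± 0.42 for miR-276a and 1.81 ± 0.46 for bantam toward 5p, and -1.84 ± 0.50 for let-7 and -2.37 ± 0.83 for miR-100 toward 3p. let-7-3p made up a median of 45.4% of the hairpin's reads in female Ago2 against 24.4% in male Ago2, with 0.627% and 0.835% in the Ago1 libraries of females and males.

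**Figure D5:**
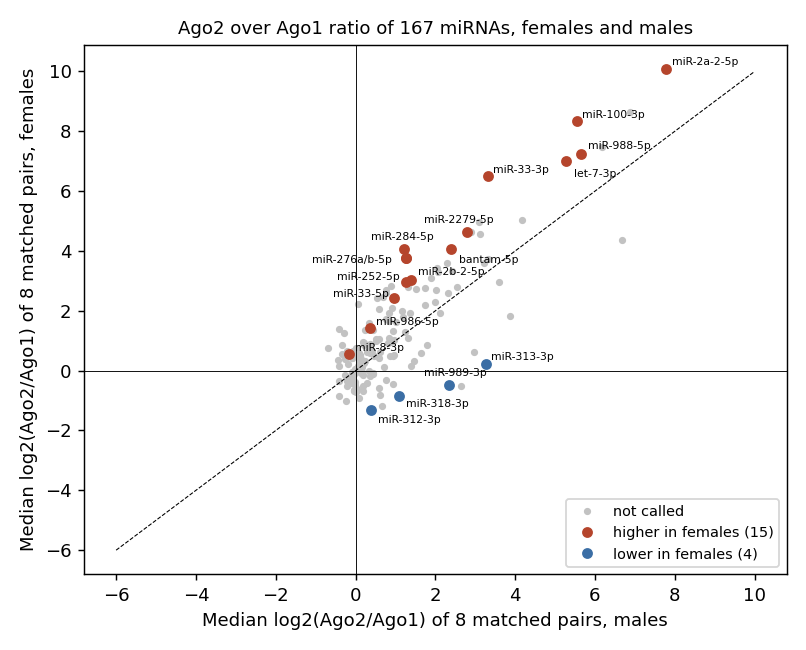
Median log2 ratio of Ago2 over Ago1 share in 8 matched pairs for each of the 167 miRNAs, females (y) against males (x), with 0.5 reads added to each count. The dashed line marks equal ratios and colour marks a called sex difference. The 15 miRNAs with a higher ratio in females lie above the line and the 4 with a lower ratio below it.

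The 4 miRNAs with a lower ratio in females were miR-989-3p, miR-318-3p, miR-313-3p and miR-312-3p, with differences of -3.23 ± 0.76, -2.86 ± 0.80, -2.57 ± 0.62 and -1.78 ± 0.40. The first 2 of these are ovary markers, and all 4 had lower median shares in males than in females in both precipitates. miR-313-3p held 22 reads in all female Ago2 libraries, 16 in male Ago2 and 55 in male Ago1. miR-312-3p had a median of 0.0221% in male Ago1, against 0.286% in female Ago1. miR-989-3p took 0.173%, 0.501% and 1.08% in female Ago2 and 0.263%, 0.692% and 1.24% in female Ago1, against 0%, 0.00431% and 0.0161% in male Ago2 and 0.000232%, 0.00049% and 0.00208% in male Ago1, from 64 male Ago2 reads in all. Without the experiment 2 Ago2 library of 35 d wDah males its difference was -1.07, and without the experiment 1 Ago2 library of 5 d wDah males it was -2.19, neither past the threshold. miR-318-3p lost its call without any 1 of 12 of the 32 libraries and was -1.70 without that 5 d wDah male library. miR-313-3p was -4.67 without the experiment 2 Ago2 library of 5 d dFOXO-null females. That omission left its group at 0 reads, so that this size is no bound. In arm shifts, miR-100 lost its call in 21 of 32 omissions, miR-998 in 3 and miR-284 in 1. The miR-284 difference of 2.22 was 4.74, 4.6 and 4.77 without the 3 female libraries named for it above. These sizes again rest on a group at 0 reads of its 3p arm and are no bound.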

How the data were processed

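Small RNAs bound to Ago1 or Ago2 were sequenced from whole flies. The authors deposited counts of reads of up to 25 nt, and of exactly 21 nt, mapped to miRNAs and transposons, before normalization. Trimmed reads were aligned with sR_bowtie, keeping every valid alignment at 1 mismatch, to a set of mature miRNAs, their star strands and transposons, and counted with featureCounts, so a read may count for several similar miRNAs; versions are not given in the sources used here. The normalized tables and the genome-mapped tables were not used.

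Counts were tested with edgeR 4.0.16 (R 4.3.3) by its quasi-likelihood test, with the miRNA reads of a library as its size, 1 mean per group of genotype, age and precipitate, rows averaging 5 or more reads, and Benjamini-Hochberg adjustment over all rows at 0.05. Arm ratios were fitted as an arm effect per group beside a level per library. Summed minor arms were compared by exact permutation (SciPy 1.17.1). limma 3.58.1, DESeq2 1.42.0, other library sizes, filters, read lengths and blocks and the omission of each library were alternatives. Duplexes were folded with RNAcofold 2.7.2. The fits were tested on simulated data.

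Named miRNAs were the up to 10 largest in each direction past the threshold, moving alike in 8 of 8 pairs with 20 or more reads in each precipitate, the 10 most abundant, 3 that the study names, and list members; hairpins followed the same rule, and sex differences the 5 largest each way. miR-252-5p, miR-8-5p, miR-10-5p, miR-986-5p, miR-9378-5p, the hairpins miR-958 and miR-929, and those that changed their leading arm were named after their values were seen. Members and lists were chosen with earlier results of these data known.

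Of the 167 miRNAs, 166 matched RefSeq's annotation by name. Numbers pair samples: siblings of 1 genotype share them, and deviations from group means of same-numbered Ago2 and Ago1 libraries correlated at 0.329 to 0.597 over 128 miRNAs. No source says that replicate numbers mark separately bred stocks, so p-values cover the spread between these libraries. A share of 0 allows up to 3 reads, which was 0.00153% to 0.0176% of miRNA reads in female Ago2 libraries and 8.6e-05% to 0.00036% in female Ago1 libraries, for counting error only.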

Additional observations from a re-analysis of the deposited data

Results flagged for a closer look

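In 6 of 84 groups of 8 libraries 1 library stood apart from the rest by Dixon's criterion, and chance alone gives about 1 in 20. miR-2a-2-5p was at 0.153% in the 35 d dFOXO-null Ago2 library of experiment 2, with the other Ago2 libraries at 0.316% to 0.393%. let-7-3p was at 0.355% in the 35 d wDah Ago2 library of experiment 1 (others 0.0667% to 0.194%), miR-311-3p at 0.214% in the 5 d dFOXO-null Ago2 library of experiment 1 (others 0.0596% to 0.119%) and miR-31b-5p at 0.297% in the 35 d wDah Ago2 library of experiment 2 (others 0.124% to 0.188%). In the 35 d wDah Ago1 library of experiment 2, miR-100-3p was at 0.000517% of miRNA reads (others 0% to 0.000195%) and at 0.673% of its hairpin's reads (others 0% to 0.217%).

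The Ago2 over Ago1 ratio differed between females and males for 19 miRNAs by the test of the difference itself. On the log2 scale, females minus males, the differences were -3.23 for miR-989-3p, -2.86 for miR-318-3p, -2.57 for miR-313-3p and -1.78 for miR-312-3p. They were 0.83 for miR-8-3p, 1.21 for miR-986-5p, 1.34 for miR-33-5p, 1.59 for miR-988-5p, 1.64 for miR-2279-5p, 1.71 for bantam-5p, 1.76 for let-7-3p, 1.77 for miR-2b-2-5p and 1.80 for miR-252-5p. They were 2.33 for miR-100-3p, 2.50 for miR-284-5p, miR-276a-5p and miR-276b-5p, 2.55 for miR-2a-2-5p and 2.80 for miR-33-3p.

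The arm shift differed between the sexes for 10 hairpins. The differences were -2.37 for miR-100, -1.84 for let-7, 1.79 for miR-312, 1.81 for bantam, 1.94 for miR-275, 2.22 for miR-284, 2.68 for miR-276a, 2.69 for miR-998, 2.71 for miR-276b and 4.92 for miR-311, the last with 20 reads of its 5p arm in female Ago2, 16 in male Ago2 and 0 in the 35 d male Ago2 groups, so that its size is no bound.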

How the results depend on the processing

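Depth in Ago2 limits the rare arms, since 52 of the 167 miRNAs had 0 reads in at least 1 Ago2 library. Counts of miRNAs called moved most with the scale. The total was 146 with TMM over all rows, where 17 were higher. With 21-nt reads 35 of 125 were higher. Lower miRNAs numbered 47 with all mapped reads, 129 with TMM over all rows, 46 with TMM over miRNAs, 36 with median-of-ratios factors and 35 with DESeq2, and the 12 of the main test were among them each time. miR-956-3p turned to -0.39, -2.70, -0.46, -0.19 and -0.19 on the log2 scale in that order, and miR-8-3p to -0.069, -2.36 and -0.13 in the first 3. Within experiment 2, bantam-3p was at 0.036 and miR-34-5p at 0.015. The cause of these changes was not tested.

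With 21-nt reads 18 of 26 hairpins shifted, 13 toward 5p, and 5 differed between the sexes. limma with a pseudocount of 5 gave 12 hairpins toward 3p. The summed minor arms differed by 3.49 points within experiment 1 and 2.04 within experiment 2, where 4 pairs cannot pass the threshold. Counting only rows with 20 or more reads in each precipitate, chosen after seeing the data, left 53 higher and 12 lower of 136.

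In the paired analysis with a replicate block, 82 (siblings) or 88 (matched sets) miRNAs were called, of which 19 or 21 were lower, 35 or 36 hairpins shifted, 23 miRNAs and 17 hairpins differed between the sexes, and the summed minor arms had p = 0.00781 in an exact sign-flip test.

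Leaving out each library in turn gave 61 to 72 miRNAs called, 50 to 58 higher and 9 to 16 lower, 26 to 31 hairpins shifted, 21 to 25 toward 5p and 5 to 8 toward 3p, 0 by age or genotype, 13 to 24 miRNAs and 7 to 14 hairpins by sex, and a summed difference of 2.46 to 3.05 points. miR-276a-3p ran between -0.091 and 0.016 and bantam-3p between -0.26 and 0.064. The 14 named arm shifts stayed past the threshold in every alternative that could be fitted.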
